A study of Mus musculus with 2 samples.

Results

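The genes of sterol and fatty acid synthesis were a list of 39 genes, chosen by name for their function: 18 enzymes of the sterol pathway, 14 enzymes of fatty acid synthesis and activation, and 7 genes that regulate sterol supply or move and store cholesterol. They were followed in 2 RNA-seq libraries of macrophages. Male C57BL/6JJcl mice had been injected with thioglycolate, and the adherent cells of their peritoneal exudate were used. One library came from cells kept for 4 h with interleukin 10 (IL-10, 100 ng/ml), the other from untreated cells, so each group has 1 library. Neither an age nor the number of animals behind a library is given in the sources used here. The value of a gene is its number of reads that cross an intron annotated to that gene alone. Of the 39 genes, 35 had at least 20 such reads over both libraries and are called measured below, against 8358 measured genes of 10535 with a matched read in the whole series. With no replicate, a ratio compares these libraries and not the conditions. Every 95% interval (exact binomial, Clopper-Pearson) covers counting error only.

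Cells make cholesterol from acetyl-CoA through mevalonate, isoprenoid units, squalene and lanosterol. They make fatty acids from malonyl-CoA and then lengthen, desaturate and activate them. Both routes are switched on by the SREBP transcription factors, which the carrier Scap takes from the endoplasmic reticulum to the Golgi for cleavage when sterols are low and which the Insig proteins hold back. Macrophages take up much cholesterol by phagocytosis, and they store the excess as cholesteryl ester made by Soat1.

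The IL-10 library held 3838155 reads on named introns and the untreated library 3866352, out of 3998954 and 4035991 junction reads. Of 12 macrophage markers 9 were measured, with 97043 reads over the whole list under IL-10 and 118316 without it. The markers went both ways: 3 of the 9 had an interval above 1 (Mrc1, Itgam and Fcgr1) and 5 below (Lyz2, Csf1r, Mertk, Cd68 and Lgals3). Cd14 and Mpeg1 had no matched read. A gene needs 2 matched introns to be named, so a 0 does not show that a gene was silent. The 6 adipocyte markers had 88 and 72 reads, all on Lipe, with Adipoq, Plin1, Cidec, Lep and Retn at 0, and the 4 hepatocyte markers had 0 and 2 reads. Fibroblast and mesothelial markers had 1270 and 1166 reads, neutrophil markers 311 and 267, eosinophil and mast cell markers 103 and 68, B cell markers 39 and 48, and T and NK cell markers 4 and 0. Stat3 (1516 and 687) and Bcl3 (330 and 129), known IL-10 response genes, were higher in the library labelled IL-10. The part of these cell type differences in the values given next was not tested. In bulk RNA, fewer cells of a type and less RNA per cell cannot be told apart.

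Of the 35 measured genes 2, both with few reads, passed the 2-fold rule. Under IL-10, Fads3 and Acat2 exceeded a 2-fold ratio with an interval above 1, and 0 genes fell below a ratio of 0.5 in the same way. That is 2 of 35 measured genes, where 1.75% of all measured genes met the rule for higher and 1.5% the rule for lower. Both had fewer than 100 reads, and among genes with 20 to 99 reads 4.40% were called higher. Both reached the minimum of 20 reads through the IL-10 library, with 5 untreated reads each, so that minimum could only be met with more reads under IL-10. Without a limit on fold, 8 of 35 genes (22.9%) had an interval above 1, against 12.8% of all measured genes, and 4 (11.4%) had one below 1, against 13.1%. The 8 were Acat2, Sqle, Msmo1, Srebf2, Acaca, Fasn, Fads3 and Acsl5, and the 4 were Sc5d, Elovl1, Fads1 and Acsl4. With a 99% interval, those of Sqle, Msmo1, Acaca, Fasn, Elovl1 and Acsl4 included 1. A ratio above 1 was found for 20 of the 35, and for 4175 of all 8358 measured genes.

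**Figure D1:**
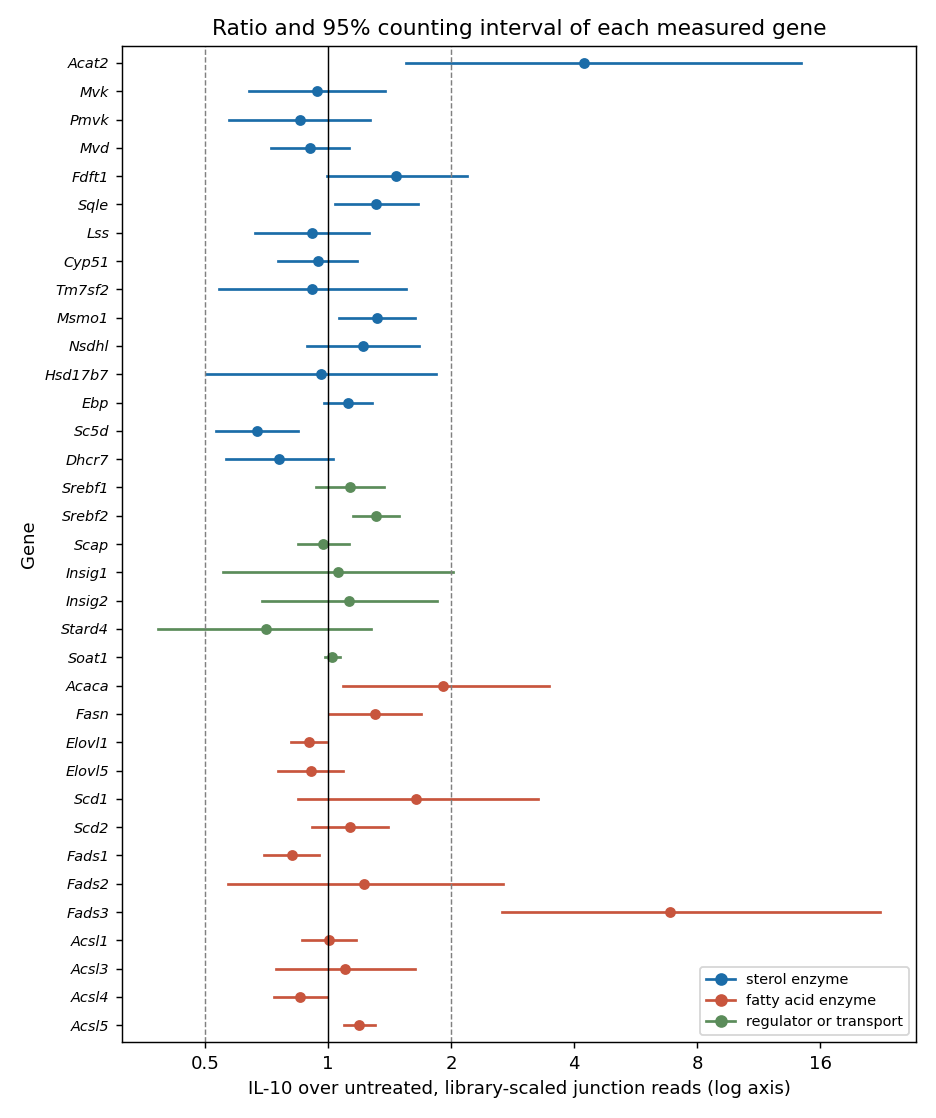
Ratio of IL-10 to untreated junction reads (points, log axis) with the 95% counting interval (lines) for the 35 measured genes, coloured by role; dashed lines mark ratios of 0.5 and 2. Fads3 (6.85) and Acat2 (4.23) lie right of the upper line, and no point lies left of the lower one.

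Fads3 belongs to the fatty acid desaturase cluster on chromosome 19 with Fads1 and Fads2, and its enzyme acts on sphingoid bases. Its reads numbered 34 under IL-10 and 5 without it, a ratio of 6.85 (95% interval 2.67 to 22.4). The reads lay on 8 of the 11 introns of its coding transcript, between positions 10127524 and 10130914 of chromosome 19 in mm9. From intron 3 to intron 10, the IL-10 library had 6, 7, 5, 0, 0, 4, 5 and 7 reads and the untreated library 0, 0, 0, 1, 2, 1, 1 and 0. Introns 6 and 7 had untreated reads alone. With at most 2 untreated reads on an intron, the direction of single introns is no further support. No exon join of Fads3 occurs in a transcript of another gene. Its neighbours gave other values: Fads1, which makes highly unsaturated fatty acids, had 300 and 371 reads (0.815, 0.697 to 0.951), and Fads2, which acts before it, had 17 and 14 (1.22, 0.567 to 2.68). The intervals of Fads3 and Fads1 do not overlap, while that of Fads2 just reaches into the range of Fads3.

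The promoters of the 2 called genes are shown because theirs were the largest differences. Sequences are 5′ to 3′ from RefSeq (GRCm38.p6, 250 bases before to 50 after the annotated start). Capitals mark matches, on either strand, to the motifs TCANNCCA (a loose form of the sterol regulatory element), CCAAT (bound by NF-Y), GGGCGG (bound by Sp1), CACGTG (an E-box) and TTCNNNGAA (a Stat motif).
Fads3, GRCm38.p6 chr19:10041298-10041597, plus strand: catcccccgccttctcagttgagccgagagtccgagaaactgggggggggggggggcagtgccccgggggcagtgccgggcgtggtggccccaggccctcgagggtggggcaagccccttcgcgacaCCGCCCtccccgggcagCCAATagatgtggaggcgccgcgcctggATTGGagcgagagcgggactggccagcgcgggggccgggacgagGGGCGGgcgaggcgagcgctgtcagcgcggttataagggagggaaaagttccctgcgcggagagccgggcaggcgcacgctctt
Acat2, GRCm38.p6 chr17:12960676-12960975, minus strand: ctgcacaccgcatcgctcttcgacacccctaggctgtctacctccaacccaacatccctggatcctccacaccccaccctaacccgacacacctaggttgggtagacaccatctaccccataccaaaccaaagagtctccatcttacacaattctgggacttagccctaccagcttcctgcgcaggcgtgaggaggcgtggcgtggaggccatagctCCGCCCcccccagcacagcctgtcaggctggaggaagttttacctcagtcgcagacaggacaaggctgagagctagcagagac
The Fads3 window held GGGCGG matches that begin at positions -123 and -34 from the start and CCAAT matches at -106 and -78. In the Acat2 window 1 GGGCGG match stood at -33. No TCANNCCA, CACGTG or TTCNNNGAA was found in either window.

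Acat2, a cytosolic thiolase, joins acetyl-CoA units at the entry to the sterol pathway. Its counts were 21 reads with IL-10 and 5 without (4.23, 1.55 to 14.4). Acat2 lies beside a near-identical gene, Acat3, on chromosome 17. The 20 transcript bases on each side of an exon join were compared with all GENCODE M21 transcripts, and 5 of the 8 joins of the Acat2 coding transcript occur in Acat3 with the same 40 bases. Introns 5 and 8 carried the most reads, 7 each over both libraries; the join of intron 5 is shared, while those of introns 6 and 8 are not. Intron 5 had 7 and 0 reads, intron 6 had 4 and 2, and intron 8 had 5 and 2. The joins of introns 5, 6 and 8 are shown for this contrast, with the downstream exon in capitals.
Acat2 intron 5, shared with Acat3: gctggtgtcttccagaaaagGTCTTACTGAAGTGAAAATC
Acat2 intron 6, not shared: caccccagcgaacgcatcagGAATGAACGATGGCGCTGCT
Acat2 intron 8, not shared: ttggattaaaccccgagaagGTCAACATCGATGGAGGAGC
On the 5 shared joins the libraries had 12 and 1 reads, and on the 3 others 9 and 4. With the shared joins left out, the ratio was 2.27 (0.633 to 10.07) and Acat2 was no longer called. Acat3 itself had 3 reads with IL-10 and 0 without, and 2 unannotated junctions ran between the genes, with 1 and 1 and with 1 and 0 reads. The value of Acat2 is therefore uncertain.

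**Figure D2:**
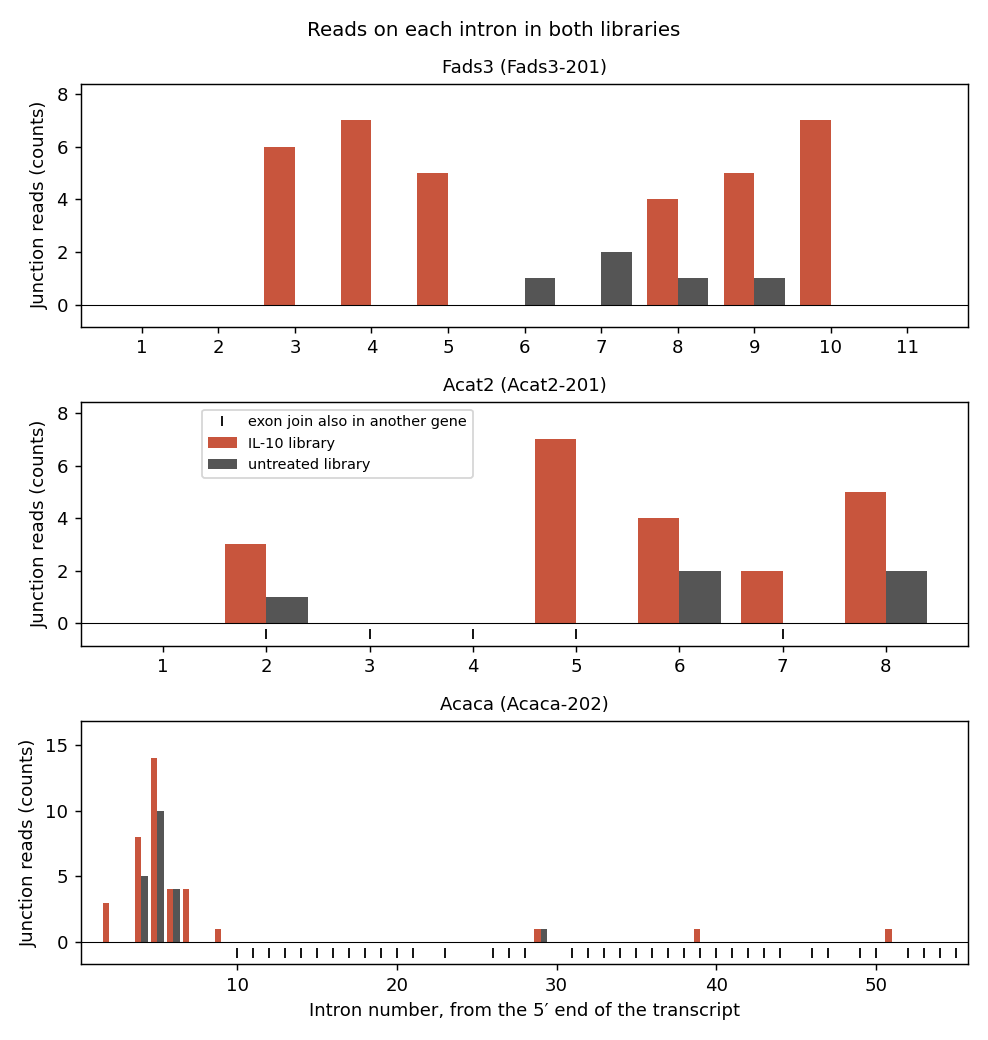
Junction reads (counts) on each intron of the coding transcript with the most reads for Fads3, Acat2 and Acaca in the IL-10 (red) and untreated (grey) libraries; ticks below 0 mark introns whose exon join also occurs in another gene. IL-10 bars exceed the untreated ones on most Fads3 introns, and of the 38 ticked Acaca introns 1 holds a read. Most Acaca reads lie near the 5′ end, on introns without ticks.

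No measured enzyme from mevalonate to the isoprenoid units differed beyond counting error. Mevalonate kinase, Mvk, had 56 and 60 reads (0.940, 0.641 to 1.38), the next kinase, Pmvk, 50 and 59 (0.854, 0.574 to 1.27), and the decarboxylase Mvd 158 and 176 (0.904, 0.725 to 1.13). All 3 intervals included 1. Hmgcs1, which makes the precursor of mevalonate, had no matched junction. Idi1, which interconverts the isoprenoid units, had 6 and 7 reads, below the minimum. Fdps, which joins those units to farnesyl diphosphate, had 0 and 1 reads on its own introns and 1 and 1 with an intron shared with another gene.

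Idi1 and Fdps had 1 read between them on joins that also occur in transcripts of other genes. Processed pseudogenes are intronless copies of an mRNA, so that a read across such a join can align to the copy without a gap. In Idi1 the 2 joins found in pseudogenes had 0 reads in both libraries, and the 2 others had 6 and 7. In Fdps 9 of 10 joins of the transcript with the most reads occurred in another gene, and those 9 held 1 and 0 reads. Of these 9, 6 occurred in processed pseudogenes, of which 5 shared joins with the gene. Introns 2, 6 and 8 of that transcript, Fdps-203, shared their joins only with Gm43738, annotated as protein-coding. The 1 read lay on its intron 2. An unshared and a shared Idi1 join and a shared Fdps join are given as examples, with the downstream exon in capitals.
Idi1 intron 1, 6 and 6 reads, not shared: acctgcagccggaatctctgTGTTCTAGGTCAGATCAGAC
Idi1 intron 3, 0 and 0 reads, shared with Gm13502 and Gm7654: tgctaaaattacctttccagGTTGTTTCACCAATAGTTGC
Fdps intron 2 of Fdps-201, 0 and 0 reads, shared with Gm3571, Gm8163 and Gm43738: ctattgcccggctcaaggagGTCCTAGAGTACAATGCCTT
Acaca had the most such joins: 17 unshared joins held 36 and 20 reads, and 38 joins that occur in the pseudogene Gm5182 held 1 and 0. The Acaca reads also differed by position. Introns 4 and 5, near the 5′ end, held 8 and 5 and 14 and 10 reads. Unshared joins further along held few reads: 1 and 1 on intron 29 and 1 and 0 on intron 51. Introns 22, 24, 25, 30, 45 and 48, also unshared, held 0. In Insig1 the 3 unshared joins held 22 and 21 reads and the shared one 0. Fdft1 had 60 and 41 reads on 6 unshared joins and 7 and 5 on 3 shared ones. The parts of shared joins and of position along the transcript in the low counts of these genes were not tested, and their levels are uncertain.

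Both enzymes that make and oxidise squalene had ratios above 1, and 1 of the intervals excluded 1. Squalene synthase, Fdft1, had 67 and 46 reads (1.47, 0.993 to 2.18), with its interval just reaching 1. On the most-used intron of Fdft1 alone, with 46 and 27 reads, the interval lay above 1 (1.72, 1.04 to 2.87). The squalene epoxidase Sqle, a rate-limiting step, had 173 and 133 (1.31, 1.04 to 1.66), and 7 of its 9 introns with at least 5 reads were higher with IL-10. Its most-used intron alone gave 1.12 (0.733 to 1.71). Lss, which closes squalene epoxide to lanosterol, had 77 and 85 (0.913, 0.662 to 1.26), but its most-used intron alone gave 15 and 10 (1.51, 0.635 to 3.76).

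The enzymes that turn lanosterol into cholesterol went in different directions. Among the demethylation steps, Cyp51 had 159 and 170 reads (0.942, 0.754 to 1.18), Msmo1 209 and 160 (1.32, 1.07 to 1.63) and Nsdhl 93 and 77 (1.22, 0.890 to 1.67). Msmo1 was higher on 4 of 5 introns and Nsdhl on 5 of 6, but on its most-used intron alone Nsdhl turned to 0.839 (25 and 30 reads). The reductases Tm7sf2 (30 and 33, ratio 0.916, 0.540 to 1.55) and Hsd17b7 (21 and 22, ratio 0.962, 0.503 to 1.83) had few reads. The isomerase Ebp had the most reads of the group, 457 and 412 (1.12, 0.976 to 1.28), 25.6% and 23.7% of the sterol enzyme reads. The desaturase Sc5d, which acts after Ebp, was the lowest sterol enzyme by ratio. Sc5d had 126 and 189 reads (0.672, 0.532 to 0.846). From intron 1 to 5, its IL-10 reads were 27, 14, 5, 31 and 49 and its untreated reads 49, 26, 5, 41 and 68. On the last of these alone the interval included 1 (0.726, 0.492 to 1.06). The reads of Dhcr7, the final reductase of this branch, were 80 and 106 (0.760, 0.561 to 1.03), but 31 and 28 (1.12) on its most-used intron. Over all introns the last 2 steps in the list had the lowest ratios of the 15 measured enzymes. That order was seen after the values and has no test.

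Of the regulators, Srebf2, the SREBP that acts mainly on sterol genes, had an interval above 1. It had 542 and 416 reads (1.31, 1.15 to 1.49), and 13 of its 18 introns with at least 5 reads were higher in the IL-10 library. Srebf1, which acts more on fatty acid genes, had 228 and 203 (1.13, 0.932 to 1.37). Its most-used intron alone had 35 and 19 reads (1.86, 1.03 to 3.43). Srebf1 starts from alternative first exons. The intron from the first exon of its main transcript had 18 and 12 reads and that from another first exon 1 and 0, which is too few to compare their use. Scap had 378 and 391 reads (0.974, 0.843 to 1.12), Insig1 22 and 21 (1.06, 0.554 to 2.02) and Insig2 38 and 34 (1.13, 0.690 to 1.84). All 3 of these intervals included 1. Insig1 is itself a well-known SREBP target. Stard4, a carrier of free cholesterol between membranes, had 21 and 30 (0.705, 0.384 to 1.27).

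Soat1, which esterifies cholesterol for storage, was the most abundant of the 39 genes in both libraries. Its counts were 4055 under IL-10 and 3987 in untreated cells (1.02, 0.980 to 1.07), 37.9% and 38.3% of all reads of the 39 genes. On its most-used intron alone it stood at 0.877 (0.801 to 0.959). Scaled to the introns of the coding transcript with the most introns, its level was 70.4 reads per intron per 1000000 named reads with IL-10 and 68.7 without. Elovl1 (25.4 and 28.3) and Ebp (29.8 and 26.6) followed in both libraries, in opposite order, and Acsl5 came next in both libraries, with 14.3 under IL-10. At the other end Acaca had the lowest level in both libraries (0.180 and 0.0941). That level is averaged over 55 introns, and 38 of them, with joins shared with Gm5182, held 1 and 0 reads. Most Acaca reads lay near the 5′ end, and unshared introns further along also held few. The place of Acaca in this order is therefore uncertain. Fads2 was at 0.403 and 0.329, and Fads3 at 0.805 and 0.118, so Fads3 lay above Fads2 under IL-10 and below it without.

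**Figure D3:**
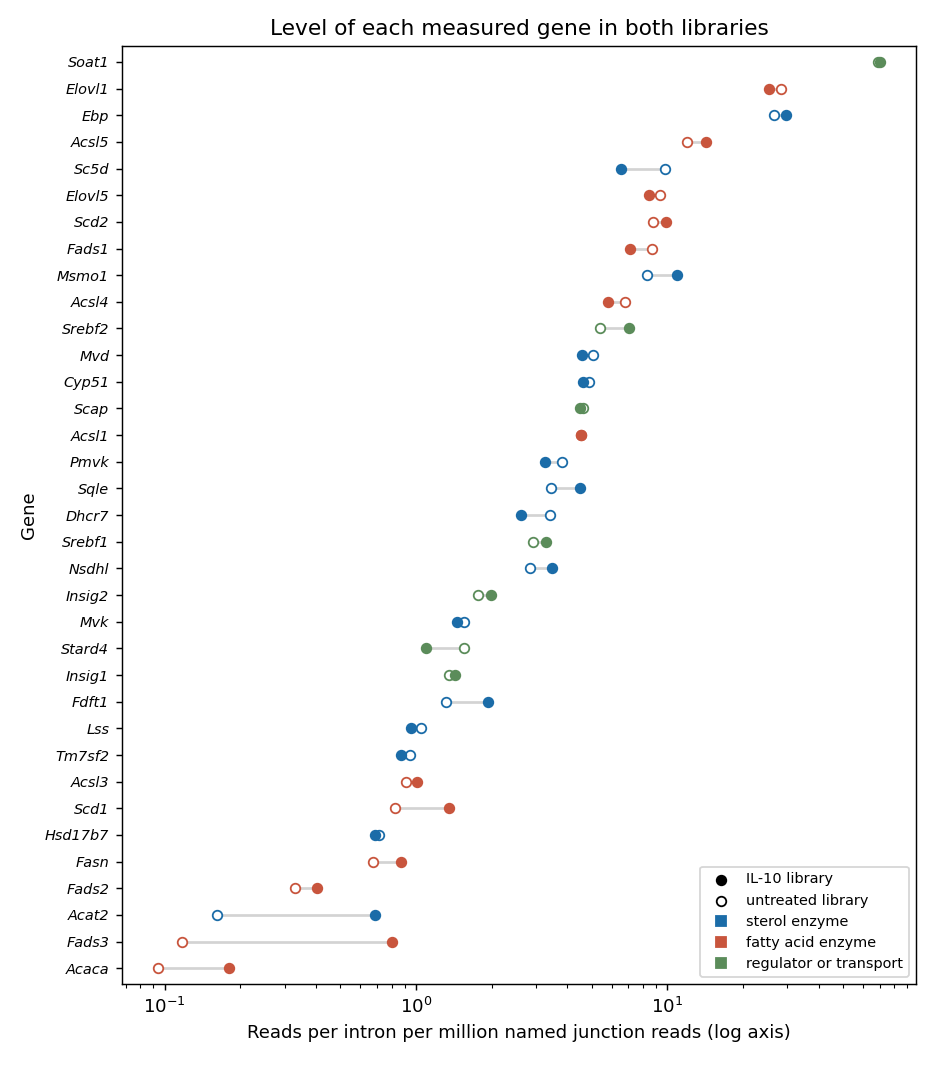
Level of each of the 35 measured genes as reads per intron per 1000000 named junction reads (log axis), filled points for the IL-10 library and open points for the untreated library, coloured by role. Soat1 leads at 70.4 and 68.7, and the widest gaps between libraries are those of Fads3 and Acat2 near the bottom.

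Among the enzymes of new fatty acid synthesis, both leading steps had intervals above 1. Acaca, the acetyl-CoA carboxylase that makes malonyl-CoA, had 38 and 20 reads (1.91, 1.09 to 3.47), just under the 2-fold limit. Fasn, the fatty acid synthase, had 141 and 109 (1.30, 1.01 to 1.69). Of its 23 introns with at least 5 reads, 11 were higher with IL-10, so its introns did not share a direction. The most-used intron of Fasn alone had 13 and 6 reads, a ratio of 2.18 whose interval included 1. That of Acaca alone had 14 and 10 (1.41, 0.583 to 3.55).

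The elongases and desaturases that act on finished chains had ratios on either side of 1. Elovl1, which lengthens saturated chains to very long ones, had 779 and 875 reads (0.897, 0.813 to 0.989). Of its 7 introns with at least 5 reads, 5 were lower with IL-10. Its most-used intron alone had 196 and 269 (0.734, 0.607 to 0.886). Elovl5, which lengthens polyunsaturated chains, had 227 and 252 (0.907, 0.755 to 1.09), but 68 and 60 (1.14) on its most-used intron. Elovl6, which lengthens newly made saturated chains, had no intron matched by the naming rule. With offsets that may differ by 10 bases 2 of its introns were found, with 4 reads under IL-10 and 0 without. The stearoyl-CoA desaturase Scd1 had 26 and 16 reads (1.64, 0.846 to 3.27), and its paralog Scd2 had 190 and 169 (1.13, 0.916 to 1.40). Per intron, Scd2 was at 9.90 and 8.74 and Scd1 at 1.35 and 0.828. The paralogs share 1 of 5 joins in Scd1 and 2 of 5 in Scd2 with another Scd gene, and these held 6 and 3 and 64 and 52 reads.

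The long-chain acyl-CoA synthetases, which activate fatty acids for further use, differed from each other. Acsl5 had 1152 and 973 reads (1.19, 1.09 to 1.30), with 18 of 20 introns higher in the IL-10 library. Acsl4, which prefers arachidonic acid, had 333 and 392 (0.856, 0.737 to 0.993), with 4 of 16 introns higher. Over all introns their intervals do not overlap. The most-used intron of Acsl5 alone had 121 and 102 (1.19, 0.911 to 1.57) and that of Acsl4 46 and 51 (0.909, 0.596 to 1.38). These 2 intervals overlap, and both include 1. Acsl1 had 348 and 349 (1.004, 0.863 to 1.17), although its most-used intron alone, intron 20, had 60 and 34 (1.78, 1.15 to 2.79). Acsl3 had 58 and 53 (1.10, 0.746 to 1.63).

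Set against each other, sterol and fatty acid enzymes did not separate. The 18 sterol enzymes summed to 1783 reads with IL-10 and 1741 without (1.03, 0.965 to 1.10), and the 14 fatty acid enzymes to 3643 and 3598 (1.02, 0.974 to 1.07). The sterol ratio divided by the fatty acid ratio was 1.01, with an exact conditional interval of 0.932 to 1.097. Any difference between the sums was thus within counting error. By genes, the median log2 ratio was -0.09 over 15 measured sterol enzymes and 0.18 over 13 measured fatty acid enzymes, against 0.00 over all measured genes. The sterol minus fatty acid difference of the medians was -0.26 on the log2 scale, while the quotient of the sums was 1.01. With at least 100 reads per gene the fatty acid median was 0.01 over 9 genes. Of the sterol enzymes 6 had a ratio above 1 and 9 below, and of the fatty acid enzymes 9 and 4. The 7 regulators and transport genes had 5 above and 2 below, with a median of 0.08. Their sum was 5284 and 5082 reads (1.05, 1.01 to 1.09), an interval above 1, and Soat1 held 76.7% and 78.5% of it. The interval of Soat1 itself included 1. Of the 7, only Srebf2 (542 and 416 reads) had an interval of its own above 1. All 39 genes summed to 10710 and 10421 (1.04, 1.01 to 1.06).

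**Figure D4:**
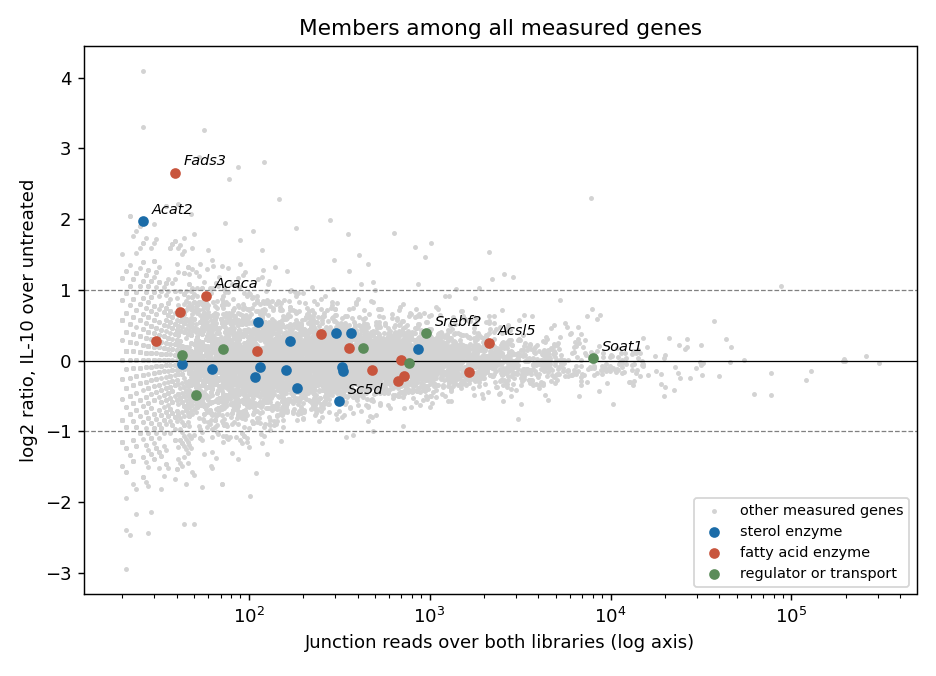
Log2 ratio of IL-10 to untreated (vertical) against junction reads over both libraries (horizontal, log axis) for all 8358 measured genes in grey, with the 35 measured genes of the list coloured by role; dashed lines mark 2-fold. Only Fads3 and Acat2 lie beyond them, at the low end of reads, and Sc5d at -0.57 is the lowest of the coloured points.

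No difference in splice site choice was called within the genes. Of 20 donor or acceptor sites in 9 genes with at least 20 reads in each library and more than 1 junction, 0 differed by 20 percentage points with intervals that did not overlap, against 0.211% of 8548 sites over all genes. The widest difference was at an acceptor of Acsl4 on chromosome X in mm9. There an unannotated junction from 138786162 to 138794925 took 4 of 31 reads with IL-10 (12.9%, 3.63 to 29.8) and 1 of 38 without (2.63%, 0.0666 to 13.8). At a donor of the same gene, an annotated junction from 138786452 to 138794929 took 2 of 35 reads with IL-10 (5.71%) and 0 of 47 without, where the interval reaches 7.55%. At an acceptor of Srebf1 on chromosome 11, the annotated junction from 60020076 to 60020339 took 35 of 35 reads and 19 of 20. Soat1, chosen after its values were seen, used an unannotated acceptor in both libraries. The junction from 158369951 to 158370637 on chromosome 1, with a 687-base intron in place of the annotated 724 bases, took 29 of 943 reads with IL-10 (3.08%, 2.07 to 4.39) and 15 of 1064 without (1.41%, 0.791 to 2.31). These intervals overlap slightly. Over all the genes, unannotated junctions held 0.677% and 0.487% of the reads, most of them in Soat1.

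Of the 39 genes 32 had promoters in the RefSeq table, 42 windows in all, and Fads1, Fdft1, Fdps, Scd1, Scd2, Sqle and Stard4 are named only. CCAAT, on either strand, was in 27 of 42 windows (64.3%), against 36.8% of the windows of all measured genes and 37.4% of all 32851 windows of this length. It was in 14 of 18 sterol enzyme windows (77.8%) and 7 of 13 fatty acid enzyme windows (53.8%). GGGCGG was in 31 of 42 (73.8%), against 64.3% for measured genes and 35.7% overall. The loose sterol element TCANNCCA was in 7 (16.7%), against 12.6% and 15.7%, and its stricter form TCACNCCAC in those of Acsl1 and Hmgcs1 (4.76%), against 1.12% and 1.24%. The sterol regulatory element of the LDL receptor promoter, searched as an exact string, was in 0, against 0.035% and 0.091%. CACGTG was in 7 (16.7%), against 10.8% and 7.15%. TTCNNNGAA was in 1 (2.38%), that of Ebp, against 6.61% and 8.30%. Every TCACNCCAC match holds a TCANNCCA, so these matches overlap.

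The promoters of Srebf2 and Msmo1 are shown for their TCANNCCA matches beside intervals above 1. That of Sc5d is shown as the measured sterol gene with the lowest ratio. These were picked with the values known. Acsl1, Elovl5 and Srebf1 also had TCANNCCA, with intervals that included 1, as did Hmgcs1, which was not measured. Acat2, Acaca, Fasn, Fads3 and Acsl5 had intervals above 1 and no TCANNCCA in their windows. A link between this motif and the ratios was not tested. Capitals are as above.
Srebf2, GRCm38.p6 chr15:82147019-82147318, plus strand: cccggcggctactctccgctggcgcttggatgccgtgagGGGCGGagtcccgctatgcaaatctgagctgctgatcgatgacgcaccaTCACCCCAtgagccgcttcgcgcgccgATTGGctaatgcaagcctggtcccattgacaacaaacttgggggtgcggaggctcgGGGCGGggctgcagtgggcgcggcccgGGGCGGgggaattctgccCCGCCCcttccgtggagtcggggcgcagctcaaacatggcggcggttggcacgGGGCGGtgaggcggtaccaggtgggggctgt
Msmo1, GRCm38.p6 chr8:64733529-64733828, minus strand: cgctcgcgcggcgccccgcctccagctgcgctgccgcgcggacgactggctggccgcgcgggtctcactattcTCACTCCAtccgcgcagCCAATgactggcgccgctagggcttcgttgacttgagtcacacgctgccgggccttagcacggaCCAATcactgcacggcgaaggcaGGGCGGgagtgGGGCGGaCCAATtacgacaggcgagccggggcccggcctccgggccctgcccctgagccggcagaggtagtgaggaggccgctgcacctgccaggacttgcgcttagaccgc
Sc5d, GRCm38.p6 chr9:42264251-42264550, minus strand: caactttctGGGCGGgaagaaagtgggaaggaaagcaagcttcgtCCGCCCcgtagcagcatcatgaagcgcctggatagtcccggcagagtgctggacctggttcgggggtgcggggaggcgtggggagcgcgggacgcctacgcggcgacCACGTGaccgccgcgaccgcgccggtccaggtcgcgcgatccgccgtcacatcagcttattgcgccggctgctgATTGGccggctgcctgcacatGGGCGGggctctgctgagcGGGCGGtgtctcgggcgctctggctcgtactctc
In Srebf2 the TCANNCCA match, TCACCCCA, began at -162 and the CCAAT match at -135. In Msmo1 the match was TCACTCCA at -177, with CCAAT at -160, -96 and -55. Sc5d had no TCANNCCA, a CACGTG at -98 and a CCAAT match at -24. These are letters in a window and were not tested as binding sites.

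Other genes of the same routes, from lists chosen by function, held 1 called gene. Among 23 other sterol and isoprenoid genes 19 were measured, 0 were higher and 1 was lower: Coq2, of ubiquinone synthesis, had 6 and 17 reads (0.356, 0.115 to 0.945). Over all measured genes 1.75% were called higher and 1.5% lower. Among genes with 20 to 99 reads, as Coq2 has, 4.64% were called lower. Coq2 reached the minimum of 20 reads mainly through the untreated library. Soat2, the second cholesterol esterifying enzyme, had 35 and 21 (1.68, 0.950 to 3.04), and the sterol hydroxylase Cyp27a1 had 32 and 51 (0.632, 0.393 to 1.003). The median log2 ratio of that list was 0.08, while its summed reads were 11613 and 12801 (0.914, 0.891 to 0.937). Of its 19 measured genes 1 had an interval above 1 and 3 below, against 12.8% and 13.1% of all measured genes. Of 40 other fatty acid and glycerolipid genes 25 were measured, with 0 called, beside the same 1.75% and 1.5%, and a median of -0.05. Their largest differences were those of Acss2, an acetyl-CoA synthetase, with 12 and 22 reads (0.549, 0.248 to 1.16), Hacd3, of the elongation cycle, with 56 and 97 (0.582, 0.411 to 0.816), and Oxsm, of mitochondrial fatty acid synthesis, with 15 and 10 (1.51, 0.635 to 3.76). Among 8 genes of LXR, the oxysterol-sensing receptor that also drives Srebf1, 0 were called. In that list 1 of 8 had an interval above 1 and 4 of 8 below, against 12.8% and 13.1% of all measured genes. The cholesterol exporter Abca1 had 1416 and 1030 reads (1.38, 1.28 to 1.502), the lipid droplet coat gene Plin2 9564 and 12876 (0.748, 0.729 to 0.768), and Nr1h2, which encodes LXR beta, 564 and 638 (0.891, 0.794 to 0.999).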

How the data were processed

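TopHat, Cufflinks and the build mm9 are named in the submitters' processing notes, with no version. What the authors deposited is counts of reads across each splice junction, 1 library per group, unscaled. Groups came from the sample titles, because the protocol text attached to the untreated sample also describes the IL-10 treatment. A junction took a gene name where chromosome, strand and intron length matched a GENCODE M21 intron and when 2 or more introns of that gene had the same offset of at most 20 Mb. This named 106734 of 131057 junctions, in 10772 genes.

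Reads on introns of 1 gene alone were summed and divided by the library's total of such reads. Log2 ratios used a pseudocount of 0.5 reads. A gene with at least 20 reads over both libraries was called when its 95% interval excluded 1 and its ratio was 2 or more, or 0.5 or less. No test between conditions was possible with 1 library per group. The procedure was run on simulated gene counts with counting error alone. These held no variation between libraries, so they cannot show how often such variation leads to a call. The genes and lists were chosen with earlier results of these data known. All 39 genes were named, and from the other pathway lists the called genes and the 3 with the largest absolute log2 ratio; of junctions, those with the largest difference in share. Stat3, Bcl3 and the cell markers are outside this rule and were named as checks, with their values known. Python 3.11.15, scipy 1.17.1, pandas 2.3.3, R 4.3.3, edgeR 4.0.16 and DESeq2 1.42.0 (the last 2 for scaling factors alone) were used.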

Additional observations from a re-analysis of the deposited data

How the results depend on the processing

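The count of 2 genes called higher and 0 lower was the same with the TMM factor, the DESeq2 size factor, the total of all junction reads, no minimum of reads, shared introns included, an overhang of at least 10 bases, a fold of 3, a 99% interval and a pseudocount of 5. With a fold of 1.5 it was 3, with Acaca added. It was 0 with at least 100 reads, since Fads3 and Acat2 have fewer. It was also 0 on the intron with the most reads, where 28 of the genes had 20 reads. Fads3 (7 and 0 reads) and Acat2 (5 and 2, ratio 2.52) were under that minimum there. With copied exon joins left out (introns or whole genes, settings chosen after seeing the data), the count over introns was 1, Fads3. On the intron with the most reads the summed ratio was 1.11 for the sterol and 0.967 for the fatty acid enzymes, their quotient was 1.1515 (0.990 to 1.34) and the sterol median 0.15. With Acsl5, its member with the most reads, left out, the fatty acid ratio was 0.956. With the regulators joined to the groups the sterol sum was 1.04 (1.01 to 1.08), an interval that excludes 1. All other settings moved the sums, medians and quotient by less than their counting error.

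Over all genes, 146 higher and 125 lower became 37 and 10 with at least 100 reads, 357 and 335 with a fold of 1.5, 53 and 29 with a fold of 3, 107 and 77 with a 99% interval and 202 and 190 with no minimum. Splice sites called over all genes were 18, and 30, 4, 29, 12 and 9 with at least 10 reads, at least 50 reads, 10 points, 30 points and annotated junctions alone, with 0 in the listed genes each time. No paired analysis was possible because each group has 1 library. Genes under 100 reads carry wide intervals.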
